A study of Mus musculus with 4 samples.

Results

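Complement genes were examined in tumor-associated macrophages (TAMs) from MCA205 tumors, a mouse fibrosarcoma model. The 9 genes were C1qa, C1qb, C1qc, C3, C4b, Cfb, Cfp, C3ar1 and C5ar1, chosen by symbol, and each matched 1 of the 54146 genes in the count table. Female C57BL/6 mice between 8 and 16 weeks old were injected subcutaneously with MCA205 cells, and from that day they drank water alone (control, labelled vehicle) or water with propranolol, a nonselective blocker of beta-adrenergic receptors, at 0.5 g/L. Leukocytes were enriched with beads against CD45, live CD11b+F4/80+ cells were sorted, and their poly-adenylated RNA was sequenced in 2 libraries per group. The labels do not say whether a library came from 1 mouse or from a pool, so that p-values measure only the spread between these libraries. The libraries held 13798249 and 23018142 counts in the control group and 39818103 and 16424081 in the propranolol group. The level of a gene is its share of a library, as CPM, after TMM adjustment of library sizes. A call required an edgeR quasi-likelihood adjusted p under 0.05 together with a difference of more than 1.5-fold, and the standard error (SE) of each log2 fold change is given.

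Complement is a cascade of plasma and tissue proteins that tags targets and calls in phagocytes. C1q binds antibody or damaged cells and starts the classical pathway, which cleaves C4 and C2. Factor B and properdin (Cfb, Cfp) form and stabilise the convertases of the alternative pathway, and both routes meet at the cleavage of C3. The released fragments C3a and C5a attract and activate myeloid cells through C3ar1 and C5ar1. Macrophages, rather than the liver, make most of the body's C1q, and tumor macrophages are known for high levels of its transcripts.

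Among the 9 genes, all of which had enough counts for a test, 2 were called higher after propranolol and 0 lower. These were C5ar1, the receptor of C5a, with 2.09-fold, and Cfp, which encodes properdin, with 1.80-fold. The called share was 22.2%, against 27.8% of the 14688 genes tested, so that the 9 genes were not called more often than the table as a whole. Of all tested genes, 12.2% were called higher and 15.6% lower. By the adjusted p alone, without the fold threshold, 6 of the 9 genes passed, where 42.2% of all tested genes did. Of these 5 were higher and 1 lower, against 21.8% and 20.4% of all genes. The groups did not overlap for 8 of the 9 genes, against 72.6% of all genes. Both propranolol libraries lay above both control libraries for 6 (35.8% of all genes) and below them for 2 (36.9%). The median log2 fold change was 0.34 over the 9 genes and -0.02 over all tested genes. With the GC correction described below these medians were 0.12 and 0.09, and with total counts as library sizes 0.11 and -0.25. The transcripts of the C1q chains stayed among the most abundant of the cells, but their proportions differed between the groups.

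**Figure D1:**
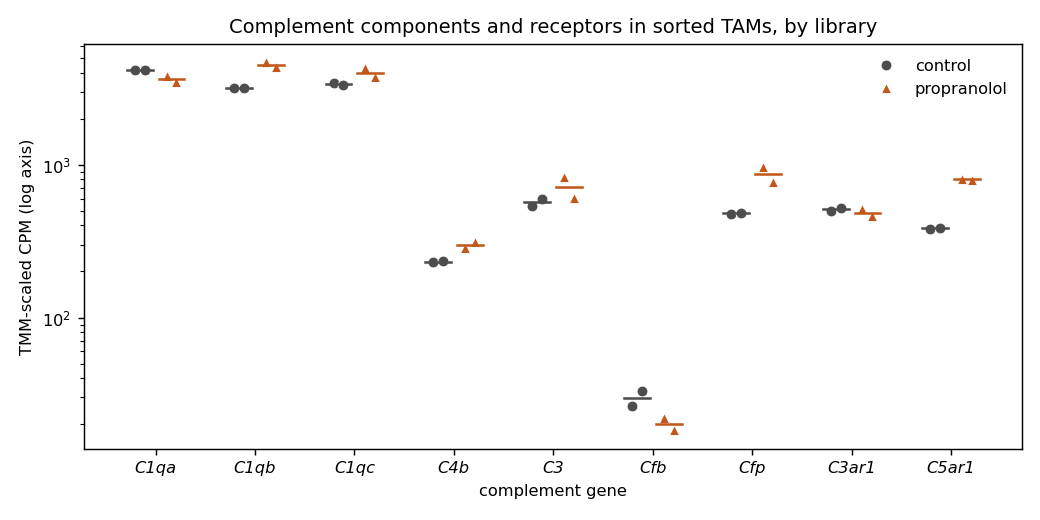
Level of each complement gene by library, in TMM-scaled CPM on a log axis. Circles are the 2 control libraries, triangles the 2 propranolol libraries and bars the group means. C5ar1 and Cfp lie higher in both propranolol libraries, C1qa and Cfb lie lower, and the groups overlap only for C3ar1.

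The positions below are those of the GRCm38 genome, and promoter sequences are those of RefSeq for GRCm38.p6, 250 bases before to 50 bases after the start of each gene, read 5′ to 3′ on the strand of the gene. They were listed for 6 of the 9 genes, and 4 are shown, those of the neighbouring C1q chain genes that are listed (C1qb and C1qc, chr4:136886151-136886450 and chr4:136892865-136893164) and of both genes called higher (C5ar1, chr7:16259289-16259588, and Cfp, chrX:20931506-20931805). All lie on the minus strand. The start used for C1qc and for C5ar1 lies inside the gene positions given below. Part of the 250 bases before it thus falls within those positions. Capitals mark matches, on either strand, to the ETS core of the macrophage factor PU.1 (GAGGAA) or to the core of the site of MAF factors (TGCTGA).
C1qb: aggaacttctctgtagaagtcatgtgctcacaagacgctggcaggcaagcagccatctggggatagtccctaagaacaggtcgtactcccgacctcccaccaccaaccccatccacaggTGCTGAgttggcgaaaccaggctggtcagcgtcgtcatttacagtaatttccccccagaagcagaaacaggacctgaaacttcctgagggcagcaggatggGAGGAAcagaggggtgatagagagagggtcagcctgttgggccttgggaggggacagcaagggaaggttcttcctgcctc
C1qc: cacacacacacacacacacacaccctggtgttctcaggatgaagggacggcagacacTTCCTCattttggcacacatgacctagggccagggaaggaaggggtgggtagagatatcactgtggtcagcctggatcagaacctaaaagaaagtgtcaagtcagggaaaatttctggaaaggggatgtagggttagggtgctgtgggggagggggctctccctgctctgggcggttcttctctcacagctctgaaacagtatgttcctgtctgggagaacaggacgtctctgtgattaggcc
C5ar1: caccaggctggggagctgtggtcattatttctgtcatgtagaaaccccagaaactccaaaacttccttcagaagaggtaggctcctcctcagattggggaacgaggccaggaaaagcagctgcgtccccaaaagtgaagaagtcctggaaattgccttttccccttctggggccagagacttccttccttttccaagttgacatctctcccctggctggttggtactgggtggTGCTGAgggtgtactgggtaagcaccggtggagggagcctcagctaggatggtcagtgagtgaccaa
Cfp: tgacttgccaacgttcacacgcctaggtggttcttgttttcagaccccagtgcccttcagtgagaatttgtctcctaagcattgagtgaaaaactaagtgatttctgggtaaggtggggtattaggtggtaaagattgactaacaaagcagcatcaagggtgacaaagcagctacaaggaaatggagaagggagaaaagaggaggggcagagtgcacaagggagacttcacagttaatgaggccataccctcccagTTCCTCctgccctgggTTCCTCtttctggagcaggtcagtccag
The GAGGAA core was found in the windows of C1qb, C1qc and Cfp, 3 of 6 complement promoters, against 28.276% of all 32851 windows of the same length. In C1qb it begins 30 bases before the start. The TGCTGA core was found in C1qb, C3, C3ar1 and C5ar1, 4 of 6, against 19.485% of all windows. An AP-1 site (TGANTCA) was found in C3ar1 alone, against 7.808% of all windows. The other motifs searched were the cAMP response element (TGACGTCA, 1.79% of all windows), the interferon-stimulated response element core (GAAA, any 2 bases, GAAA; 3.443%), the GAS element (TTCNNNGAA, 8.298%) and the E-box of MITF and TFE factors (CACGTG, 7.15%), and 0 of the 6 windows held any of them. Both strands were searched and no match overlapped another. A match describes letters only, since binding was not measured.

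C1qa, C1qb and C1qc encode the A, B and C chains, which assemble in equal numbers into the C1q protein. Their genes lie beside each other within 18.7 kb of chromosome 4, in the order C1qb (136880129 to 136886187), C1qc (136889804 to 136893065) and C1qa (136895917 to 136898803), all on the minus strand. Together they took 1.147% and 1.158% of all counts in control against 1.164% and 1.075% in propranolol libraries. The groups overlapped in this raw share. With TMM-adjusted library sizes the sum was 10675 and 10629 CPM in control against 12742 and 11565 CPM in propranolol libraries, and the groups did not overlap, so that the comparison of the sum depended on the scaling.

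C1qa had 4133 and 4140 CPM in the control libraries and 3825 and 3478 CPM after propranolol. Both propranolol libraries lay lower, and the log2 fold change of -0.18 (SE 0.08) did not pass the edgeR test (adjusted p = 0.112). C1qb had 3145.5 and 3168.5 CPM in the control libraries and 4661 and 4361 CPM after propranolol, a log2 fold change of 0.51 (SE 0.08, edgeR adjusted p = 0.000923). Both propranolol libraries lay higher, but the 1.43-fold difference was under the fold threshold. C1qc had 3396 and 3320 CPM in the control libraries and 4256 and 3726 CPM after propranolol. Its log2 fold change was 0.25 (SE 0.09, edgeR adjusted p = 0.0474), a 1.19-fold difference.

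The chains thus did not keep their order. Levels were compared between genes as TPM, counts per exon length scaled to the same sum in each library, which carry no TMM factor. In the control libraries C1qa was the most abundant chain, with 13208 ± 285 TPM, before C1qb with 9636 ± 246 and C1qc with 5774 ± 25.4 (SD, n = 2 per group). After propranolol C1qb led with 11665 ± 220 TPM, before C1qa with 9875 ± 388 and C1qc with 5811 ± 383 (SD, n = 2 per group). In both groups the differences between these neighbours exceeded their spread. Among all genes ranked by mean TPM, C1qa went from place 7 to place 9, C1qb from 9 to 7 and C1qc from 17 to 13.

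A ratio within a library does not depend on how libraries are scaled. The TPM ratio of C1qa to C1qb was 1.375 and 1.367 in control against 0.859 and 0.834 in propranolol libraries. The groups were far apart compared with the difference between replicates, and the ratio differed by -0.70 on the log2 scale (exact permutation test over libraries, two-sided, p = 0.333, the smallest p that 2 against 2 allow). In counts, C1qa made up 38.72% and 38.95% of the C1q total in the control libraries and 30.02% and 30.07% after propranolol, and C1qb went from 29.47% and 29.81% to 36.58% and 37.71%. The share of C1qc was 31.81% and 31.24% in control against 33.4% and 32.22% in propranolol libraries. The fold change of C1qa minus that of C1qb lay between -0.72 and -0.67 (log2) under all 15 other settings. Settings that scale or filter all genes alike could hardly move this difference, so they are no separate support for it. With each library left out in turn it ranged from -0.72 to -0.67, and with the GC correction described below it was -0.69. The longest transcripts of C1qa and C1qb have a GC content of 59.52% and 57.35%, and none of the exons of the C1q genes is shared with another annotated gene. Counts per gene hold no read positions, so coverage along these transcripts was not tested. This ratio was singled out after its values were seen.

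**Figure D2:**
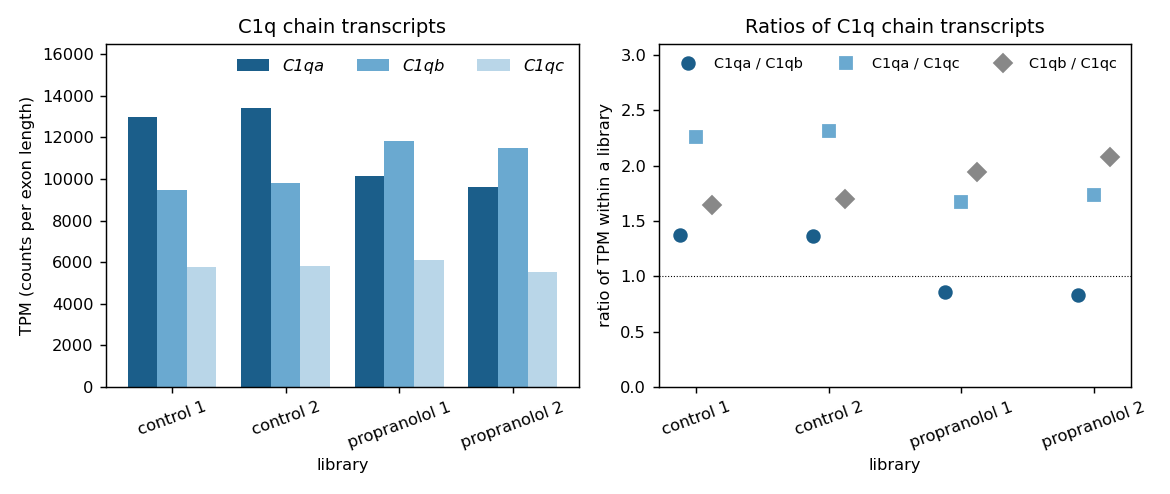
Transcripts of the C1q chains in each library, as TPM (left, bars from 0) and as ratios of TPM within a library (right, dotted line at equal levels). C1qa exceeds C1qb in both control libraries, with ratios of 1.375 and 1.367, and is below it in both propranolol libraries, with 0.859 and 0.834.

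C4b and C3 encode the proteins whose cleavage carries the cascade forward. C4b (chromosome 17, 34728380 to 34743882) had 231 and 233 CPM in the control libraries and 286 and 313 CPM after propranolol. The groups did not overlap, and the log2 fold change was 0.37 (SE 0.10, edgeR adjusted p = 0.0120), a 1.29-fold difference under the threshold. C4b has a near copy, C4a, which had 6 and 16 counts in control against 41 and 28 in propranolol libraries. Of all stretches of 100 bases in the C4b transcript, 16.5% also occur in C4a, and a fragment that lies wholly within such a stretch cannot be told apart between the copies, so that the level of both genes is uncertain. C3 (chromosome 17, 57203970 to 57228136) had 540 and 594 CPM in the control libraries and 835 and 602 CPM after propranolol. The propranolol libraries differed from each other by more than the lower of them differed from the control libraries, and the log2 fold change of 0.34 (SE 0.14) did not pass (edgeR adjusted p = 0.0741). Without propranolol replicate 2 it was 0.59 and was called, and without propranolol replicate 1 it was 0.09.

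In the alternative pathway, properdin and factor B differed in opposite directions. Cfp (chromosome X, 20925454 to 20931555) had 477 and 484 CPM in the control libraries and 958 and 769 CPM after propranolol. Both propranolol libraries were far above the control libraries, with a log2 fold change of 0.85 (SE 0.11, edgeR adjusted p = 0.000402). Cfb (chromosome 17, 34856374 to 34862518) had 26.6 and 33.0 CPM in the control libraries and 21.9 and 18.3 CPM after propranolol. Both propranolol libraries lay lower, with 0.676 times the control level and a log2 fold change of -0.56 (SE 0.16, edgeR adjusted p = 0.0167), just short of the fold threshold. Cfb was called lower in 7 of 15 other settings and was negative in all of them. Of its exon bases, 79.5% are shared with Gm20547, an annotated gene that spans Cfb and C2 and had 0 counts in all 4 libraries, and fragments that overlap exons of more than 1 gene are not counted by featureCounts in its default mode, so that its level is uncertain. Cfd, which encodes the factor D protease, had 2.14 CPM in control and 2.21 in propranolol TAMs, with overlapping groups.

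With TMM factors the anaphylatoxin receptors parted as well. C5ar1 (chromosome 7, 16246743 to 16259540) had 381 and 384 CPM in the control libraries and 804 and 799 CPM after propranolol. The difference between the groups was large beside that between replicates, and the log2 fold change was 1.07 (SE 0.09, edgeR adjusted p = 0.000103). C5ar1 was called higher under all 15 other settings, with log2 fold changes from 0.83 to 1.14 and adjusted p-values from 3.36e-27 to 0.00277 over the edgeR, DESeq2 and limma tests. C5ar2, which encodes the second C5a receptor, had 31.9 ± 4.13 CPM in control and 42.9 ± 0.216 in propranolol TAMs (SD, n = 2 per group). Its log2 fold change of 0.43 (SE 0.13, edgeR adjusted p = 0.0231) was under the fold threshold. C3ar1 (chromosome 6, 122847138 to 122856161), the receptor of C3a, had 498 and 522 CPM in the control libraries and 511 and 460 CPM after propranolol. Here the groups overlapped, and the log2 fold change of -0.07 did not pass (SE 0.10, edgeR adjusted p = 0.581). The TPM ratio of C5ar1 to C3ar1 was 1.282 and 1.232 in control against 2.634 and 2.911 in propranolol libraries, without overlap (exact permutation test, two-sided, p = 0.333, the smallest possible). Such a ratio does not remove a trend with GC content, which is 49.2% for C5ar1 and 43.0% for C3ar1. With the GC correction described below both receptors were higher, with log2 fold changes of 1.13 and 0.48. Per length, C5ar1 with 494.5 ± 12.5 TPM led C3ar1 with 394 ± 21.1 and C3 with 366 ± 32.0 in control TAMs (SD, n = 2 per group), where C3ar1 and C3 did not differ beyond their spread. After propranolol C5ar1 had 878 ± 20.8 TPM, C3 392 ± 79.2 and C3ar1 317 ± 14.9 (SD, n = 2 per group), and C3 exceeded C3ar1 by less than the SD of C3. Cfp, with 919 ± 28.7 and 1397 ± 177 TPM, stood above these receptors in both groups. C4b, with 135 ± 3.74 and 148 ± 13.6 TPM, and Cfb, with 35.1 ± 6.10 and 20.004 ± 2.03 TPM, were the lowest (SD, n = 2 per group).

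The gene fold changes depended on how libraries were scaled and on base composition. With total counts as library sizes, the median of all tested genes moved from -0.02 to -0.25 (log2), and 609 genes were called higher and 3497 lower in place of 1798 and 2286. Under that scaling C1qa had -0.41, C1qb 0.28, C1qc 0.02, C3ar1 -0.31, Cfp 0.61 and C5ar1 0.83. Across the 14681 tested genes with a known GC content, fold change rose with GC content (Spearman's correlation 0.577 across genes, which are not independent). The 1092 genes within 1 percentage point of the GC content of C1qb had a median log2 fold change of 0.47, close to its own 0.51. The same median was 0.49 around C1qa, 0.48 around C1qc, 0.43 around C4b, 0.32 around C3, 0.30 around Cfb and 0.46 around Cfp, all of which have GC contents above 52%. C3ar1, at 43.0% GC, had neighbours with a median of -0.54, and C5ar1, at 49.2%, neighbours with 0.03. When a smooth trend with GC content was removed from each library, C5ar1 was still called higher (log2 fold change 1.13, edgeR adjusted p = 0.000245), as were 7.64% of all genes, and Cfb was called lower (-0.76, adjusted p = 0.00747), as were 4.97%. Cfp had 0.53 (edgeR adjusted p = 0.0151), under the fold threshold, C1qa had -0.51 (adjusted p = 0.00759) and C3ar1 had 0.48 (adjusted p = 0.00590). C1qb with 0.18, C4b with 0.07, C3 with 0.12 and C1qc with -0.09 did not pass the edgeR test after this correction (adjusted p = 0.208, 0.631, 0.584 and 0.605).

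**Figure D3:**
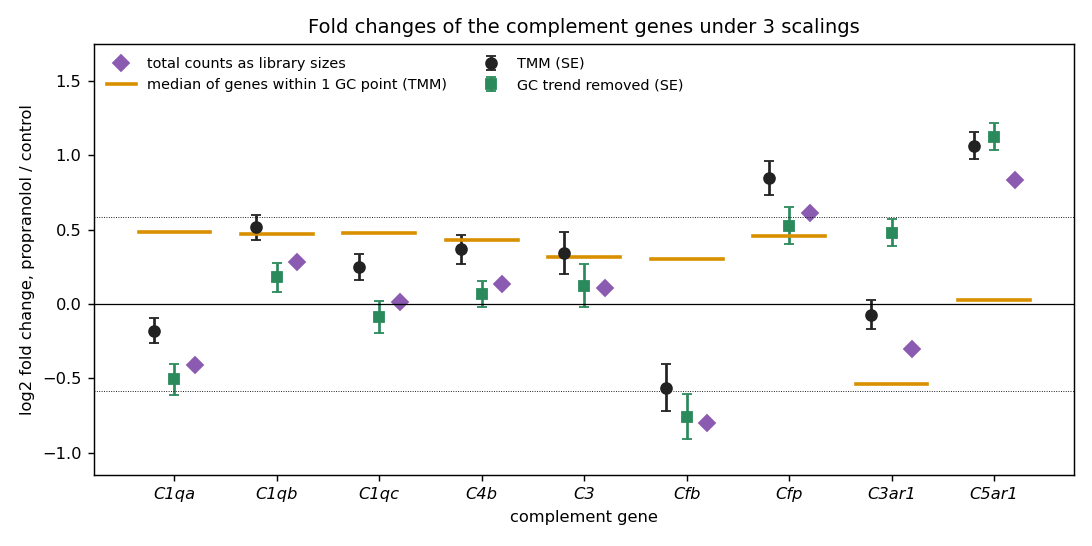
Log2 fold change of each complement gene, propranolol against control, with TMM factors (circles), with the GC correction (squares) and with total counts as library sizes (diamonds). Error bars are standard errors, orange bars are the TMM median of genes within 1 percentage point of GC content, and dotted lines are the 1.5-fold threshold. C5ar1 is above the threshold under all 3 scalings, C1qb lies at the median of its GC neighbours with 0.51 against 0.47, and C3ar1 changes sign.

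The wider complement list held 51 genes with the 9 above, of which 29 had enough counts for a test. Of these, 3 were called higher and 4 lower, 24.1% against 27.8% of all tested genes, with a median log2 fold change of -0.04. The other gene called higher was Fcna, which encodes ficolin A, a lectin pathway recognition protein of macrophages. It had 14.4 ± 2.59 CPM in control and 24.4 ± 2.89 in propranolol TAMs (SD, n = 2 per group), a log2 fold change of 0.78 (SE 0.17, edgeR adjusted p = 0.00521). It had 0.48 after the removal of the GC trend and was then not called (edgeR adjusted p = 0.0775). Among the proteases, C1ra, whose product C1r activates C1s, had 25.3 CPM in control and 25.7 in propranolol TAMs. C1s1, which encodes C1s, was called lower with 163 and 80 counts in control against 66 and 22 in propranolol libraries (log2 fold change -2.07, SE 0.52, edgeR adjusted p = 0.0102). C2, which shares 42.77% of its exon bases with Gm20547, had -0.86 and Masp1, a protease of the lectin pathway, -0.69, and neither passed (edgeR adjusted p = 0.162 and 0.0709).

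Of 13 regulators listed, 6 had enough counts, and 3 were called lower and 0 higher, where 15.6% of all tested genes were called lower. Their median log2 fold change was -1.06, against -0.02 over all tested genes. All 6 were negative with TMM factors, as were 7495 of the 14688 tested genes, while 2 of them, Cd59a with 0.36 among these, were positive after the removal of the GC trend (median of the 6 -0.32). Serping1, the gene of the C1 inhibitor, had 105 and 75 counts in control against 79 and 28 in propranolol libraries, a log2 fold change of -1.29 (SE 0.43, edgeR adjusted p = 0.0357). Clu, which encodes clusterin, had 32 and 35 counts in control against 19 and 5 in propranolol libraries (log2 fold change -1.97, SE 0.58, edgeR adjusted p = 0.0201). Cd55, Cd46 and Cd59a, membrane regulators, had fold changes of -0.91, -1.21 and -0.04 (log2) at levels below 3 CPM, and none passed. Cr1l, the gene of the membrane regulator Crry of rodents, was listed with the receptors of complement fragments and is not among the 13 regulators counted here. It had 57.0 CPM in control and 39.2 in propranolol TAMs. Its log2 fold change of -0.53 (edgeR adjusted p = 0.0142) was under the fold threshold, and at 37.8% GC it was 0.61 and called higher after the removal of the GC trend (edgeR adjusted p = 0.00825).

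Among the integrins that bind C3 fragments, Itgb2 had 652.5 ± 60.2 CPM in control and 976 ± 32.4 in propranolol TAMs (SD, n = 2 per group). Its log2 fold change of 0.58 (edgeR adjusted p = 0.00122) lay just under the fold threshold. Its alpha partners Itgam, which encodes the CD11b used for sorting, and Itgax, which encodes CD11c, had -0.06 and -0.01 (log2) with overlapping groups. Of the exon bases of Itgam, 68.67% are shared with the annotated gene Gm49368, so that its level is uncertain. Of 6 genes of the terminal pathway, which builds the membrane attack complex, 2 had enough counts for a test. C6 had 5.82 CPM in control and 4.07 in propranolol TAMs, C8g 2.27 and 2.56, and neither passed. In all, 22 genes of the list had too few counts for a test, and 8 of them had 0 counts in all 4 libraries together, which allows up to 0.0322 CPM by counting error alone (3 counts). Among these were C1s2, Mbl1, Colec10, C9, C4bp and Cd55b.

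**Figure D4:**
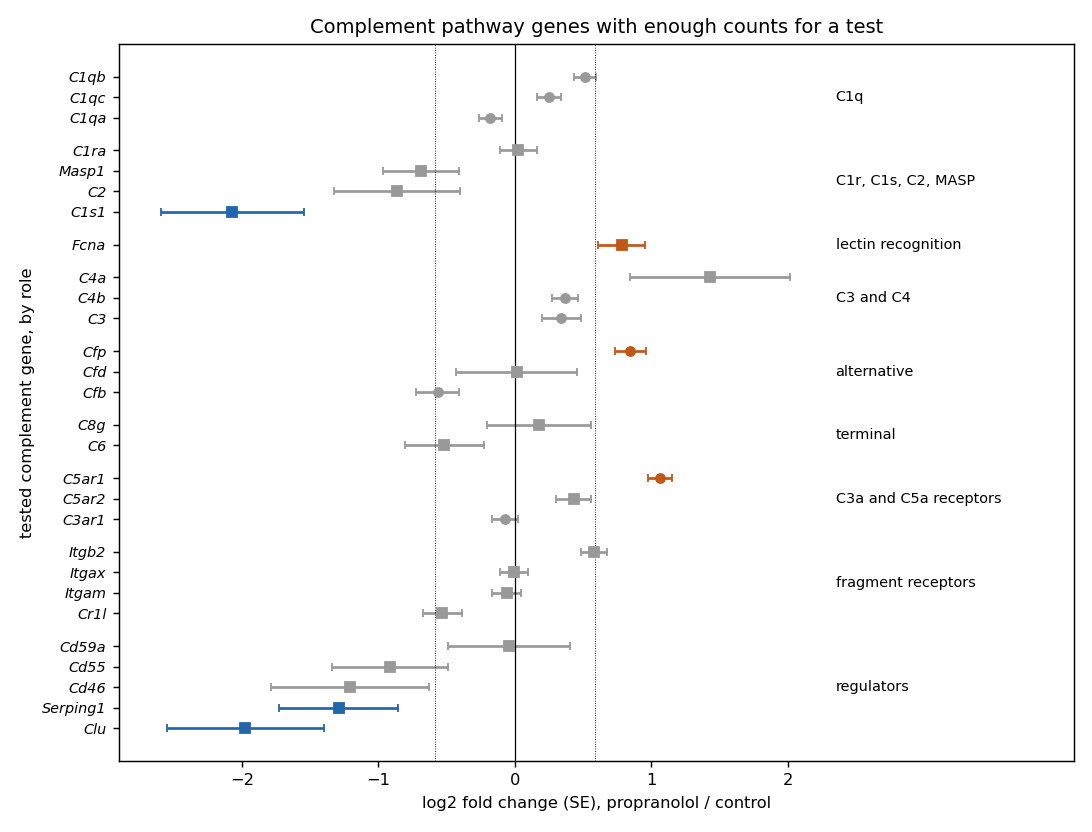
Log2 fold change with its standard error for complement genes with enough counts for a test, grouped by role. Circles are the 9 genes examined first and squares the rest of the list, orange marks genes called higher (C5ar1, Cfp, Fcna), blue those called lower (C1s1, Serping1, Clu), and dotted lines are the 1.5-fold threshold.

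In sorted bulk samples fewer cells of a type and less RNA per cell cannot be told apart, and markers of other cells differed between the libraries. The sorted cells carried macrophage transcripts throughout, with all 10 macrophage markers tested, 0 at zero counts, and a summed level of 23303 and 21570 CPM in control against 30286 and 30333 CPM in propranolol libraries. The most abundant was Apoe, with 10350 and 14626 CPM, and 2 of the 10 were called higher and 0 lower. The 8 fibroblast and fibrosarcoma markers summed to 3366 and 1228.5 CPM in control against 701 and 757 CPM in propranolol libraries, with 7 called lower, 0 higher and 0 at zero counts. Col3a1 was the most abundant of them in control TAMs, with 859 CPM against 218 after propranolol, and Col1a1 in propranolol TAMs, with 639.95 CPM in control against 262 after propranolol. C1s1, Serping1 and Clu were, like the sum of these markers, highest in control replicate 1. Without that library, C1s1 had -0.89, Serping1 -0.51 and Clu -1.60 (log2), and none of them was called changed. Without control replicate 2, Serping1 had -1.79 and C1s1 -2.71. Without propranolol replicate 2, Serping1 with -1.16 and Clu with -1.71 were not called either. C5ar1, Cfp and Fcna were called higher without each of the libraries in turn. How far fibroblast RNA accounts for the genes called lower was not tested.

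**Figure D5:**
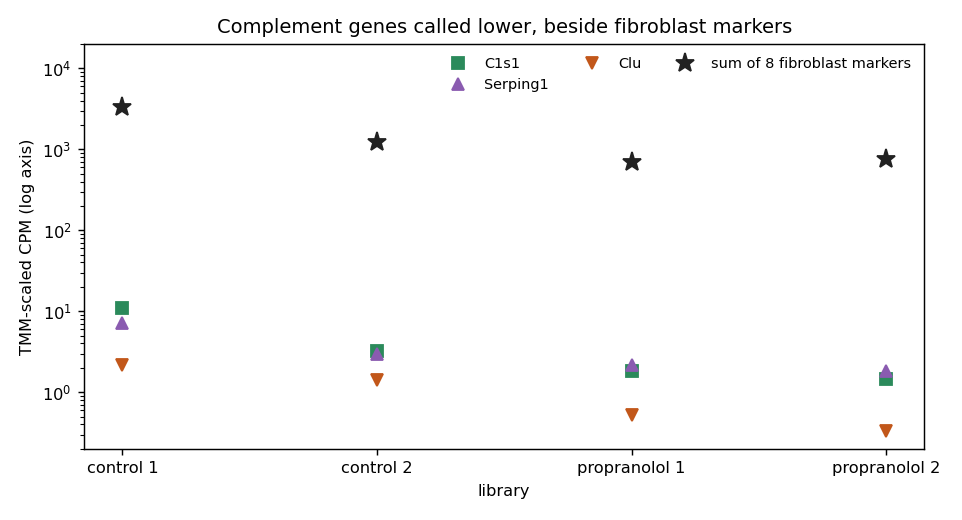
Level of C1s1, Serping1 and Clu, which were called lower, and the summed level of 8 fibroblast and fibrosarcoma markers in each library, in TMM-scaled CPM on a log axis. The marker sum runs from 3366 CPM in control replicate 1 to 701 CPM in propranolol replicate 1, and all 3 genes are higher in both control libraries than in both propranolol libraries.

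Neutrophils and monocytes also carry C5ar1 and Cfp transcripts. The 9 neutrophil markers summed to 148 and 181 CPM in the control libraries and 309 and 325 CPM after propranolol. Of these, 6 were tested and 4 called higher, Csf3r was the most abundant with 113 and 167 CPM, and Ly6g and Camp had 0 counts in control replicate 1. The 7 monocyte markers summed to 962 and 867 CPM in the control libraries and 1111 and 962 CPM after propranolol, with 3 called higher and 0 lower. F13a1, the most abundant of them after propranolol, had 321 CPM in control and 494 in propranolol TAMs. Ccr2, the most abundant in control TAMs, differed in the other direction, with 426 and 284 CPM and a log2 fold change of -0.58 just under the fold threshold (edgeR adjusted p = 0.00249). All 6 NK cell markers and 6 of 7 T cell markers were called lower, with sums of 105 and 111 CPM and 231 and 273 CPM in the control libraries against 45.2 and 21.9 CPM and 122 and 66.3 CPM after propranolol. Prf1 and Cd8a led these lists, with 48.0 and 78.9 CPM in control TAMs. The 6 dendritic cell markers summed to 32.8 and 32.1 CPM against 20.2 and 17.7 CPM, with 3 called lower and Ccr7 the most abundant. The 6 endothelial markers summed to 49.4 and 47.7 CPM against 62.8 and 61.2 CPM, with 1 called higher and Pecam1 the most abundant. The 5 B cell markers stayed under 21 CPM in sum, with Cd79b the most abundant and, of 2 tested, 1 called higher and 1 lower. The part of these cells in the complement values was not tested.

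Genes with a course over the 4 libraries like that of the complement genes were sought among 4159 protein coding genes with a mean of at least 50 CPM, by the Euclidean distance of log2 CPM from the mean of each gene. Among the nearest to C5ar1 were Atp5d (distance 0.02), Plaur (0.03), Mif (0.04) and Ddx41 (0.04). Plaur, the urokinase receptor, had 101 and 98.7 CPM in control against 209.43 and 209.37 CPM in propranolol libraries. Mif, which encodes macrophage migration inhibitory factor, had 135 and 140 CPM in control against 293 and 283 CPM in propranolol libraries. Nearest to the mean of C1qa, C1qb and C1qc were Vipas39 (0.02), Cpsf3 (0.02), Pygo2 (0.02), Tpd52l2 (0.03) and Tcof1 (0.03). Their log2 fold changes were from 0.20 to 0.22, and none passed the edgeR test. The mean is not the course of each chain, since C1qa had a log2 fold change of -0.18, C1qb 0.51 and C1qc 0.25. With 4 libraries such a likeness is a description only.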

How the data were processed

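TAMs were sequenced in 4 libraries, 2 per group. The authors aligned reads to mm10 with STAR 2.7.1a, kept those with a mapping quality above 30 with SAMtools 1.9, counted exon fragments with featureCounts 1.6.4 on a GENCODE annotation of unstated release, and deposited raw counts per gene. DESeq2 (version 1.39.0) is also listed in the submitters' processing notes. Columns were matched to libraries by the number in the labels, and 0 columns were left out. No strand option is stated. Replicates differed by more than sampling noise (chi-square per degree of freedom 10.6 for control and 13.7 for propranolol).

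Gene identifiers without their version matched GENCODE M21 (GRCm38) for 54079 of 54146 genes. Library sizes were scaled with TMM factors (1.08 and 1.09 for control, 0.914 and 0.931 for propranolol), filterByExpr at a minimum count of 10 kept 14688 genes, and propranolol was set against control in the quasi-likelihood test of edgeR, with p-values adjusted over all of them by the Benjamini-Hochberg procedure (R 4.3.3, edgeR 4.0.16, limma 3.58.1, DESeq2 1.42.0). Standard errors came from the coefficient and the F statistic. The alternatives were DESeq2, other size factors, other filters, each library left out, the replicate block, a GC correction (natural spline with 5 degrees of freedom, as offsets), limma-voom, glmTreat and another threshold. Total counts as library sizes were added after seeing the data. The steps were tested on simulated data in which 200 genes were changed by 1.5 (log2). Without a GC trend, edgeR recovered 87.5% of these genes and made 7 false calls. With a GC trend added it recovered 91.5% and made 1282 false calls, against 11 with the GC correction. All genes were simulated with the same dispersion, 0.0172, and the added trend was a straight line in GC content (log2), which the spline can fit. The simulation therefore does not show how well the correction removes the trend in the real libraries.

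The genes, lists and motifs were chosen with earlier results of these data known. Named were the 9 genes, those of the wider list that were called or reached 20 CPM, the 5 nearest patterns of C5ar1 and of the C1q mean, and the most abundant marker of each list in each group. Some genes that this rule names are not reported here. Cfd, C2, Masp1, C4a, C6, C8g, Cd55, Cd46 and Cd59a were named after their values were seen.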

Additional observations from a re-analysis of the deposited data

How the results depend on the processing

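Over 15 other settings, 116 of 135 log2 fold changes of the 9 genes kept their direction and their side of the threshold, 10 became called, 3 were no longer called and 6 reversed. C1qc reversed to -0.087 with the GC correction and to -0.093 with this correction and the replicate block. C3ar1 reversed to 0.0012 without a filter on low counts, 0.034 without propranolol replicate 2 and 0.48 with the GC correction, with or without the block. The cause was not tested. With a library left out, C3ar1 ranged from -0.147 to 0.034. The calls for Cfp were lost with the GC correction, with and without the block, and with glmTreat. The number of the 9 genes called changed was 1 with glmTreat against 1.5-fold and 6 with no fold threshold, and 2 to 4 with a library left out, 4 without propranolol replicate 2 (C1qb, C3, Cfp and C5ar1). In the complement list it was 1 with glmTreat, 14 with no fold threshold and 5 to 12 with a library left out, 12 without control replicate 2. Over all genes, 4084 were called changed, 1851 with the GC correction, 2120 with this correction and the replicate block, 1093 with glmTreat, 6204 with no fold threshold, and 3615 to 4329 with a library left out.

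Replicate numbers were not taken to pair libraries, since nothing in the labels ties them and there are only 2 pairs (correlation of the deviations of same-numbered libraries 0.169 across genes). With the replicate block, 4362 genes were called changed, and the calls for the 9 genes did not change. In the complement list C4a was added (1.49, log2). The calls for Fcna, C1s1, Serping1 and Clu were lost with glmTreat, those for C1s1 and Serping1 with limma-voom, and that for Fcna with total counts as library sizes.

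With the length of the longest transcript in place of all exons, the TPM levels (control and propranolol) were 10262 and 7607 for C1qa, 7487 and 8987 for C1qb, 7201 and 7185.5 for C1qc, 285 and 302 for C3, 111 and 121 for C4b, 28.0 and 15.8 for Cfb, 757 and 1142 for Cfp, 306 and 244 for C3ar1 and 389 and 684 for C5ar1, so that C1qb and C1qc in control TAMs, and C1qa and C1qc in propranolol TAMs, lay closer together. Where only 1 library of a group remained, its variation was taken from the pair in the other group. Depth limits the genes below about 10 CPM, where few counts decide the value.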
